A study of Mus musculus with 17 samples.

Results

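Ancestry was compared at a fixed genotype in the livers of 17 mice, all 8 weeks old. The mixed-ancestry libraries, named with a star, were the 10 of KO_star and WT_star, and the 7 pure-ancestry libraries were those of KO and WT. They were chosen by the group labels, and the comparison covered 16157 of the 27020 genes deposited, those that reached 10 in 3 or more libraries. KO_star (n = 6) were Khdc3-null females and WT_star (n = 4) genetically WT females, both from heterozygous parents and from WT and KO grandparents in combination. KO (n = 3) were Khdc3-null mice with KO ancestors, and WT (n = 4) were WT mice with WT ancestors. The sex of the pure groups, the strain, the kind of null allele, the litter and the cage are not given in the labels, so it is not known whether mice of a group were siblings, and a p-value speaks of the spread among these samples alone. The labels name no sequencing batch either, so in any difference between mixed and pure libraries the ancestry, the strain, the litter, the cage and the batch cannot be told apart.

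As background, Khdc3 encodes a protein of the subcortical maternal complex of the oocyte, and mice descended from null ancestors are studied for effects that pass through the germline. Breeding from heterozygous parents also recombines whatever DNA differs between the founder lines. In a cross of that kind, each animal carries its own combination of founder segments outside the selected locus, and a gene whose level follows a nearby variant then takes a few discrete levels among littermates. Neither genotypes nor variants were measured here, and the comparison below describes expression only: the mean difference between mixed and pure ancestry, and how far the libraries of a group lay from each other.

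The libraries held 17.62 M to 26.7 M reads in genes. Khdc3, on chromosome 9 at 73101836 to 73104438 (GRCm38), had at most 4 reads in any library, so its own level does not check the genotype. Xist, the RNA of the inactive X chromosome, was at 27643 to 35965 in the mixed and at 28991 to 32256 in the pure libraries. The labels give hepatocyte as the cell type, and Clec4f, a marker of liver macrophages, was at 1319.6 to 2662 in the mixed and 1555 to 1976 in the pure libraries, so other liver cells were present. In bulk tissue fewer cells of a type and less RNA per cell cannot be told apart.

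The libraries labelled KO_star 13, KO_star 16 and WT_star 33 stood apart. Wdr72, 1.01 Mb from Khdc3, had 2.11 in the library labelled KO_star 13, against 269 to 487 in the other 5 KO_star libraries. It had 0, 0.966, 2.35 and 2.06 in the WT_star libraries, 609, 856 and 554 in the KO and 6.22, 1.64, 2.28 and 3.04 in the WT libraries. Aph1c, a subunit gene of the gamma-secretase complex 6.27 Mb from Khdc3, had 374 there, against 26.5 to 156 in the other KO_star libraries and 359, 347, 336 and 312 in WT_star. KO had 35.9, 16.9 and 33.5 and WT 339.7, 374, 300.2 and 416. In these genes the library labelled KO_star 13 was at the WT level, while the other 5 lay near KO, except that KO_star 17 was between the lines for Aph1c. Other genes near Khdc3 differed in this: Rab27a, which lies next to it, was at the KO level in KO_star 13, as given below with the rest of the region. Counts and summary values over all genes are given with and without KO_star 13. Of 44 named level genes that could be tested without it, 13 were no longer called: A2ml1, Lrtm1, Cth, Mfsd2a, Ntrk2, Mme, Ugt3a1, Tedc2, Ctse, Kdm2b, Afp, Slc36a1 and Zfp869. KO_star 16 was high in cell division genes, such as Mki67 at 1304, and WT_star 33 in acute phase genes, such as Saa1 at 76343. Wdr72, Aph1c, Mki67 and Saa1 were chosen after their values were seen.

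The question of level was whether genes stood higher or lower in mixed than in pure ancestry with both genotypes weighted equally. A linear model (limma) on log2(value + 1) with a mean for each group called 184 genes, or 1.14% of those tested, at an adjusted p under 0.05. Of these, 113 (0.699%) were higher and 71 (0.439%) lower in mixed ancestry, and 41 differed by at least 1 on the log2 scale. The median difference over all genes was 0.0023, a value that scaling each library keeps near 0. Both mixed group means lay above both pure means in 90 of the called genes and below both in 69. In the remaining 25 the group means had another order. Without the library labelled KO_star 13 the call was made for 167 genes, without KO_star 16 for 174, without WT_star 33 for 116 and without all 3 for 119. The count was also 115 without KO_star 17, 121 without KO_star 29, 94 without KO 30, 75 without KO 31, 83 without KO 32, 322 without WT 25, 103 without WT 26, 94 without WT 27 and 108 without WT 28.

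**Figure D1:**
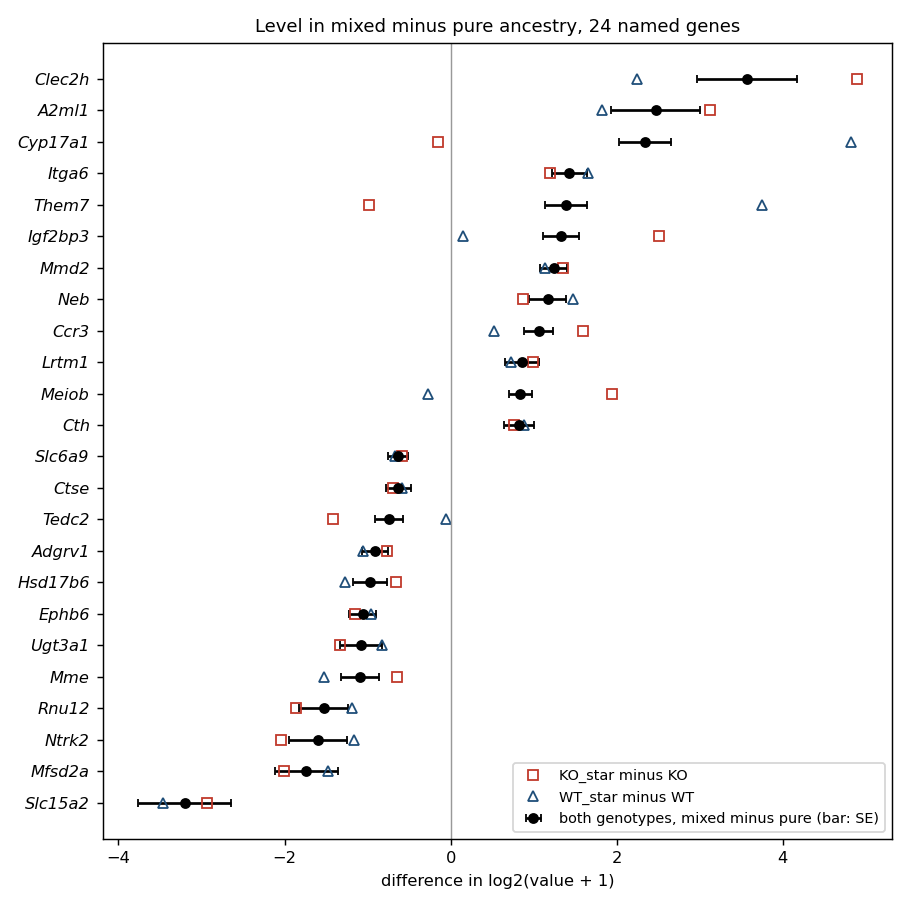
Difference in log2(value + 1) between mixed and pure ancestry for the 12 higher and 12 lower genes named by a fixed rule, with both genotypes together (filled circles, bars are SE), for KO_star minus KO (squares) and for WT_star minus WT (triangles). Itga6 and Mmd2 differ by a like amount in both genotypes, while for Cyp17a1, Them7, Igf2bp3 and Meiob the differences of the 2 genotypes lie far apart.

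Among the genes higher in mixed ancestry, Mmd2, a membrane protein of the progestin and adipoQ receptor family, showed no overlap between any mixed and any pure library. Its lowest, median and highest values were 853, 1023 and 1301 in KO_star, its WT_star values were 1326, 993, 1701 and 1441, and it had 510.0, 328 and 418 in KO and 752, 365, 643 and 783 in WT. The log2 difference was 1.24 ± 0.16 (SE), with an adjusted p of 0.00178. In all, 20 genes (0.124%) had no overlap, 6 higher (0.0371%) and 14 lower (0.0866%) in the mixed libraries, and 13 of them were among the called genes. Itga6, the integrin subunit alpha 6, had a lowest, median and highest value of 213, 349 and 504 in KO_star and 424, 471, 272 and 662 in WT_star, against 221, 138 and 102 in KO and 176, 162, 93.6 and 131 in WT. It was higher by 1.43 ± 0.21 (SE, adjusted p = 0.00506), and only KO_star 14 fell within the range of the pure libraries.

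Clec2h, a C-type lectin gene of the natural killer gene complex, had the largest difference in level among the called genes named. It had 24.3, 104 and 245 as its lowest, median and highest values in KO_star and 12.5, 148, 149 and 100 in WT_star, against 2.24, 4.44 and 0.984 in KO and 3.56, 9.86, 29.7 and 38.5 in WT. KO_star 12 and WT_star 20 lay far below the other 8 mixed libraries and inside the range of the WT libraries. The difference was 3.57 ± 0.60 (SE, adjusted p = 0.0106), and without the 3 libraries named above its adjusted p was 0.0505. A2ml1, a protease inhibitor gene on the same chromosome 6, starts at 128539821 and Clec2h at 128662385. It had 25.3, 175 and 249 in KO_star and 16.1, 60.9, 322 and 89.7 in WT_star, with 11.2, 12.4 and 18.7 in KO and 15.1, 20.5, 22.8 and 23.3 in WT. The same KO_star 12 and WT_star 20 were its lowest mixed libraries, and its difference was 2.47 ± 0.54 (SE, adjusted p = 0.0431), a call lost in 18 of 29 alternative settings.

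In Cyp17a1, Igf2bp3 and Meiob the mixed libraries stood apart from a single pure line, while in Them7 they lay between the pure lines. Cyp17a1, the steroid 17-alpha-hydroxylase, had 464, 1050.1 and 1494 as the lowest, median and highest values in KO_star and 3244, 1278, 2565 and 1243 in WT_star, with 2018, 582 and 973 in KO and 69.4, 83.8, 53.6 and 62.8 in WT. Every mixed library thus lay above every WT library, and KO_star minus KO was -0.15 while WT_star minus WT was 4.82 (interaction adjusted p = 0.0014). Them7 had 68.2, 128 and 208 in KO_star and 161, 133, 92.9 and 94.9 in WT_star, with 288, 212 and 244 in KO and 3.56, 10.7, 6.85 and 13.2 in WT, the low line again (interaction adjusted p = 0.000142). Every mixed library lay below every KO library and above every WT library for Them7, so its call as higher is relative to the mean of the pure lines on the log2 scale. In Igf2bp3 and Meiob the KO line was the low one. Igf2bp3, an RNA-binding protein of the fetal liver, had 296, 472 and 865 in KO_star and 579, 539, 328 and 418 in WT_star, with 67.3, 83.5 and 95.5 in KO and 332, 287, 503 and 591 in WT (interaction adjusted p = 0.0151). Meiob, a single-strand DNA binding protein of meiosis, had 403, 485 and 541 in KO_star and 265, 508, 641 and 378 in WT_star, with 129, 137 and 105 in KO and 587, 585, 463 and 439.8 in WT (interaction adjusted p = 0.000829). Each of these 4 calls was lost in 2 of 29 alternative settings, with no term for genotype and with genotype and ancestry as additive terms. The highest adjusted p by limma was 0.151 for Cyp17a1, 0.335 for Them7, 0.225 for Igf2bp3 and 0.366 for Meiob. Of the 184 genes, 166 had the same sign in both genotypes, 18 had opposite signs and 22 had an interaction past the threshold. Over all genes, the interaction was past it in 1.29%, KO_star minus KO in 1.46% and WT_star minus WT in 0.904%.

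The other genes named on the higher side were Neb, Ccr3, Lrtm1 and Cth. Neb, which encodes the giant thin-filament protein nebulin, averaged 1585 ± 709 in KO_star and 1706 ± 562 in WT_star, against 809 ± 147 in KO and 600.5 ± 89.9 in WT (SD, n = 6, 4, 3 and 4). Ccr3, the eotaxin receptor, averaged 116 ± 41.4 in KO_star and 188 ± 57.3 in WT_star, against 37.4 ± 12.2 in KO and 127 ± 10.2 in WT, so that the KO line stood lowest. Lrtm1 was higher by 0.86 ± 0.20 and Cth, which cleaves cystathionine to cysteine, by 0.82 ± 0.18 (SE). Their adjusted p-values were 0.0483 for Lrtm1 and 0.0414 for Cth. The call for Lrtm1 was lost in 18 of 29 alternative settings, with adjusted p-values of up to 0.142, and that for Cth in 14 of 29, with values of up to 0.119.

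Slc15a2, which encodes the peptide transporter PEPT2, had the largest fall among the called genes named. Its lowest, median and highest values were 0.947, 9.8 and 60.4 in KO_star and its WT_star values 25.1, 12.6, 82.3 and 34, against 79.6, 143 and 59 in KO and 316, 369, 358 and 359 in WT. The groups were ordered KO_star, WT_star, KO and WT by their means, with a log2 difference of -3.20 ± 0.56 (SE, adjusted p = 0.0134). Only KO_star 14 and WT_star 33 reached the lower end of the KO values. Ephb6, an Eph receptor without kinase activity, did not overlap between ancestries. It had 106, 131 and 138 in KO_star and 86, 186, 212 and 145 in WT_star, against 277, 289 and 278 in KO and 377, 356, 226 and 233 in WT, a difference of -1.06 ± 0.16 (SE, adjusted p = 0.0046). Slc6a9, a glycine transporter, did not overlap either, with 498, 666 and 881 in KO_star and 655, 797, 587 and 467 in WT_star, against 1010.0, 959.8 and 1016 in KO and 898, 1306, 884 and 892 in WT.

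Mfsd2a, a transporter of lysophosphatidylcholine that is induced in the fasted liver, averaged 706 ± 458 in KO_star and 556 ± 314 in WT_star, against 2396 ± 315 in KO and 1434 ± 566 in WT (SD). Its libraries overlapped, since KO_star 12, KO_star 14 and WT_star 34 stood above WT 25, and the call was lost in 16 of 29 alternative settings. Ntrk2, the receptor of brain-derived neurotrophic factor, had a log2 difference of -1.60 ± 0.35, Rnu12, a small nuclear RNA of the minor spliceosome, of -1.53 ± 0.30 and Mme, the peptidase neprilysin, of -1.09 ± 0.23 (SE). Ugt3a1, Hsd17b6, Adgrv1, Tedc2 and Ctse had differences between -1.08 and -0.63. Of 29 alternative settings, the call was lost in 18 for Ntrk2, 3 for Rnu12, 12 for Mme, 20 for Ugt3a1, 9 for Hsd17b6, 17 for Tedc2 and 21 for Ctse, and in 0 for Adgrv1. Tedc2, a component of centriolar triplets, had 357, 507 and 743 in KO_star and 769, 501, 363 and 731 in WT_star, against 1468, 1371 and 1336 in KO and 491, 501, 654 and 724 in WT, and only the KO line was high.

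Several called genes were neighbours. Where consecutive called genes started within 1 Mb of each other, 6 segments held at least 3 of them, 21 genes in all. The largest, on chromosome 19 at 45363734 to 47645246, held 6 of its 38 tested genes: Btrc, Mfsd13a, Sfxn2, Cyp17a1, As3mt and Slk, 5 higher and 1 lower in mixed ancestry. On chromosome 2, Nostrin, Abcb11 and Dhrs9 were 3 of the 4 tested genes between 69135800 and 69404533, and Slc25a12, Metap1d and Itga6 were 3 of 4 between 71271063 and 71858416, all higher. The other segments held Tedc2, Abca3 and Meiob on chromosome 17, Mrps24, Polm and Nudcd3 on chromosome 11, and Gstm7, Gstm6 and Amigo1 on chromosome 3. The members of the segments beyond the named rule were listed because of where they lie.

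Described by gene list, few pathways held called genes. Of 27 urea cycle and amino acid breakdown genes, 4 were higher in mixed ancestry, against 0.699% of all genes, with a median log2 difference of 0.18 over the list. Cps1, which commits ammonia to the urea cycle, averaged 134820.1 ± 11929 in KO_star and 152272 ± 13442 in WT_star, against 87269 ± 12782 in KO and 125425 ± 9369.5 in WT (SD), a difference of 0.46 ± 0.08 (SE, adjusted p = 0.00728). Gls2, the liver glutaminase, was higher by 0.51 ± 0.10, Hgd, of tyrosine breakdown, by 0.27 ± 0.06, and Gldc, of glycine cleavage, by 0.42 ± 0.10 (SE). Of 25 methionine and folate cycle genes, 4 were higher: Cbs and Cth, which turn homocysteine into cysteine, Bhmt, which remethylates homocysteine, and Aldh1l1, a folate enzyme. Bhmt averaged 19363 ± 3270.4 in KO_star and 30523 ± 7193 in WT_star, against 15343 ± 1452 in KO and 16297 ± 4757 in WT (SD), a difference of 0.62 ± 0.14 (SE, adjusted p = 0.0464). Gldc and Bhmt were named after their values were seen. The call was lost in 17 of 29 alternative settings for Cbs, 7 for Hgd, 6 for Aldh1l1, 3 for Gls2 and 2 for Cps1, and Gldc and Bhmt were not run under them. Without the 3 libraries that stood apart, Hgd, Cth and Aldh1l1 were not called.

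Other lists held 1 to 3 called members, where 1.14% of all genes tested were called in either direction. In sterol and lipid synthesis these were Ebp, of cholesterol synthesis (0.21 ± 0.05), and Acss2, which makes acetyl-CoA from acetate (0.60 ± 0.11). Abcb11, the bile salt export pump, averaged 13494 ± 1549.7 in KO_star and 17489 ± 1809 in WT_star, against 11619.5 ± 2051 in KO and 11551 ± 704 in WT (SD, adjusted p = 0.0194). In xenobiotic metabolism Cyp2c50 and Gstm6 were higher, and Ugt1a1 and Ugt3a1 lower. Cyp2c68 was called as higher but its mixed libraries lay between the pure lines. It had 4609.5 to 5851 in the mixed libraries, against 5885, 6090 and 5862 in KO and 2116.5 to 2873 in WT. Its call was lost in 2 of 29 alternative settings, with no term for genotype and with genotype and ancestry as additive terms. Reads of the Cyp2c and Gstm families may be divided among near-identical copies, so the levels of these families are uncertain. Afp, the fetal albumin, was higher by 2.07 ± 0.47 (SE), at 11.7, 25.9 and 128 in KO_star and 28.7, 8.7, 45.9 and 9.28 in WT_star, against 4.48, 0.888 and 0.984 in KO and 8.89, 6.57, 13.7 and 16.2 in WT. KO_star 16 had the highest of these, and the call for Afp was lost in 17 of 28 alternative settings. Ifih1, the RNA sensor MDA5, was the 1 called of 41 interferon response genes, higher by 0.37 ± 0.07, and Serpina3i, a serpin of a gene cluster with close copies, the 1 called of 22 Serpina genes, at -1.19 ± 0.21 (SE). Kdm2b, a histone demethylase, differed by 0.51 ± 0.12, Slc36a1, an amino acid transporter, by 0.26 ± 0.06, and Zfp869, the 1 called of 320 numbered zinc finger genes, by -0.45 ± 0.10 (SE). For Kdm2b the mixed libraries were at 491 to 1005, above every WT library at 235 to 317, while KO was at 749, 779.5 and 787. Among marker lists, Ngp, of neutrophil granules, was higher by 2.20 ± 0.39 (SE). It was the 1 called of 4 tested among 10 neutrophil and monocyte markers, with a list median of 1.03. Its values were near the floor, at 1.18 to 11.8 in the mixed and 0 to 2.67 in the pure libraries. Lyve1 was the 1 called of 8 sinusoidal endothelium markers, at 0.79 ± 0.18 (SE), while the list median was -0.05. Rpl30 was the 1 called of 80 cytosolic ribosomal protein genes, at 0.63 ± 0.12 (SE). In the lists of 80 and 320 genes, 1 called member is near or below the share over all genes. The call was lost in 18 of 29 alternative settings for Zfp869, 16 for Kdm2b, 15 for Slc36a1, 14 for Ebp, 13 for Lyve1, 10 for Ugt1a1, 6 for Cyp2c50 and 1 for Ifih1. It was lost in 0 for Acss2, Gstm6, Serpina3i and Rpl30, and in 0 of the 24 that gave a value for Ngp. The median log2 difference was 0.32 over 36 cell division genes, -0.28 over 38 fatty acid oxidation genes, 0.33 over 25 acute phase genes and 0.09 over 28 antigen presentation genes, lists in which limma called no member.

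The question of spread was whether libraries of a group differed more among themselves in mixed ancestry. The SD of log2(value + 1) within groups was higher in the mixed libraries for 9856 genes, or 61% of those tested. Its median over genes was 0.24 in mixed and 0.21 in pure ancestry, with a median ratio of 1.14. By group the median SD was 0.228 in KO_star, 0.219 in WT_star, 0.155 in KO and 0.214 in WT, so KO stood apart from the other 3. Without the library labelled KO_star 13 the median ratio was 1.13, without KO_star 16 it was 1.11, without WT_star 33 it was 1.06 and without all 3 it was 0.984. Those 3 are mixed libraries that were picked because they stood apart, so leaving them out lowers the mixed spread by construction.

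No gene passed the threshold for a difference in spread. The limma test on absolute deviations from the group mean gave a smallest adjusted p of 0.0614. At an unadjusted p under 0.05, 1573 genes (9.74%) were wider and 628 (3.89%) narrower in mixed ancestry. For genes simulated without a difference in spread, these unadjusted p-values came out too small. An F test of the pooled variances gave 907 wider (5.61%) and 386 narrower (2.39%) at an unadjusted p under 0.05. The F test kept its level in that simulation, which drew normally distributed errors on the log2 scale. Outlying libraries and genes with separate levels were not simulated, so its level in these data is not known. After adjustment the F test called 4 genes (0.0248%), all wider: Gm18119, Gm13394, C1rb and H2-T-ps, which are described below among the genes that fell into separate levels. Gm18119 had 0 reads in every pure library and passed the filter through mixed libraries alone, so its variance ratio has no finite value and it is no support for a wider spread. Without it the F test called 2 genes, Gm13394 (adjusted p = 0.00919) and C1rb (adjusted p = 0.0164), while H2-T-ps had an adjusted p of 0.0542, against 0.0407 with Gm18119 included. Without the library labelled KO_star 13 the limma test called 6 genes, without KO_star 16 it called 6, without WT_star 33 it called 19 and without all 3 it called 113. It called 173 without WT_star 34, 129 without WT_star 21, 73 without WT_star 20, 8 without KO 32, 6 without KO_star 14, 2 without WT 28 and 1 without KO_star 12.

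Each library was also given 1 value, its mean deviation from its own group mean over all genes. This was 0.272 ± 0.0327 in the 10 mixed and 0.238 ± 0.0307 in the 7 pure libraries (SD), a difference of 0.034 with a p of 0.0435 by a two-sided exact permutation test. Adjusted over the 3 comparisons made, the p was 0.0653. Libraries of a group share the mean they deviate from, so their values depend on each other and these permutation p-values are approximate. KO_star exceeded KO by 0.066, with 6 of 6 KO_star libraries above all 3 KO libraries (exact permutation p = 0.0238, adjusted 0.0653). That is the most extreme order these libraries can take. WT_star exceeded WT by 0.00765 (exact permutation p = 0.914), with every WT library inside the range of WT_star. The highest value in the series was 0.341, in WT_star 33, followed by 0.306 in KO_star 16. Without the library labelled KO_star 13 the difference between mixed and pure was 0.0328 (exact permutation p = 0.0645) and without KO_star 16 it was 0.0292 (exact permutation p = 0.082). Without WT_star 33 it was 0.0207 (exact permutation p = 0.209), and without all 3 libraries it was 0.00874 (exact permutation p = 0.584). The exact permutation p was also between 0.0537 and 0.106 without any 1 of KO_star 12, KO_star 14, KO 30, KO 31, KO 32, WT 27 and WT 28.

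**Figure D2:**
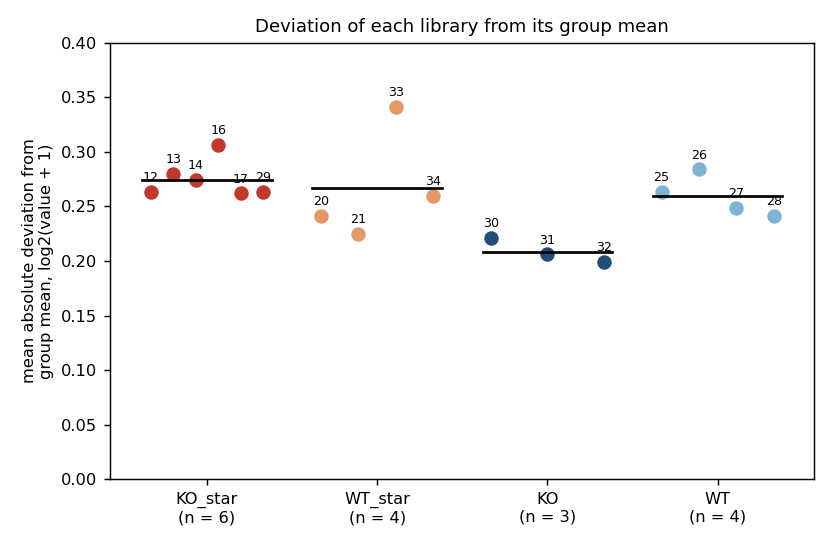
Mean over genes of the absolute deviation of each library from its group mean on the log2(value + 1) scale (points, labelled by library number), with the group mean as a line. The 6 KO_star libraries lie between 0.262 and 0.306, above the 3 KO libraries at 0.199 to 0.221, while WT_star (0.225 to 0.341) overlaps WT (0.241 to 0.284).

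Among the 8 genes with the smallest p for a wider spread, none of them past the threshold, were plasma protein and antigen presentation genes. Hp and Hpx, the plasma proteins haptoglobin and hemopexin, were raised in WT_star 33 and, less so, in WT_star 34. Hp had 28279, 30373 and 34959 as its lowest, median and highest values in KO_star and 27199.7, 34609, 175086 and 51599 in WT_star, against 36332, 35547 and 37652 in KO and 27609.5, 27775, 28189.9 and 24705 in WT. Its within-group SD was 0.13 in KO_star, 1.19 in WT_star, 0.04 in KO and 0.09 in WT, on the log2 scale, so the width came from WT_star. Tmem176a was at 8209 in WT_star 33, against 2738 to 3259 in the other WT_star libraries. H2-T23 and H2-D1 are class I antigen presentation genes on chromosome 17, and their mixed libraries took several levels in both genotypes. Iqgap1, Spidr and Anxa4 were also among the 8, with within-group SDs of 0.27, 0.17 and 0.25 in mixed and 0.03, 0.02 and 0.03 in pure ancestry.

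Genes with the smallest p for a narrower spread in mixed ancestry were Iah1, Mtrf1l, H13, Proc, Atp2b2, L3hypdh, Nudt3 and Fam20b, none past the threshold. Proc, the anticoagulant protein C, had 7809.9, 7909 and 8064 as its lowest, median and highest values in KO_star and 7485, 7479, 7381 and 7970.2 in WT_star, against 6897, 6819.6 and 7741 in KO and 8213, 9612, 7562 and 7920.0 in WT. Fam20b, a kinase of proteoglycan synthesis, was at 388 in WT 27, while WT 25, WT 26 and WT 28 lay between 916 and 1091, and this single library gave the pure groups their width.

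By gene list, the widest mixed spread relative to pure among lists of 10 or more tested genes was in macrophage markers, major urinary proteins, antigen presentation and acute phase genes. All 10 macrophage markers tested had a higher SD in mixed ancestry, with a median ratio of 2.87, against 1.14 over all genes, and 8 were wider at an unadjusted p under 0.05 (background 9.74%). Their mean log2 level ranged over 8.63 to 9.96 in mixed and 8.60 to 9.09 in pure libraries, with WT_star 33 highest. Vsig4, a complement receptor of liver macrophages, had 450.5, 556 and 784 in KO_star and 449, 448, 917 and 709.6 in WT_star, against 426, 418 and 398 in KO and 486, 554, 429 and 416 in WT. Without the 3 libraries the ratio of the list was 2.0. Of 28 antigen presentation genes 27 had a higher SD in mixed ancestry, with a median ratio of 2.30, and 14 were wider at an unadjusted p under 0.05, where 61% of all genes had a higher SD in mixed ancestry and 9.74% were wider. Without KO_star 13 that ratio was 1.97 and without the 3 libraries 1.60.

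Acute phase genes encode plasma proteins that the liver makes during inflammation. Of 25 tested, 22 had a higher SD in mixed ancestry, with a median ratio of 2.02, and 13 were wider at an unadjusted p under 0.05, against 61%, 1.14 and 9.74% over all genes. Saa1 had 265, 445 and 1601 as its lowest, median and highest values in KO_star and 419, 318, 76343 and 15448 in WT_star, against 337, 295 and 143 in KO and 731, 469.8, 206 and 139.8 in WT. Saa2, Saa3, Lcn2 and Orm2 were likewise highest in WT_star 33 and next highest in WT_star 34 among the 17 libraries, with Lcn2 at 36288 and 1067 in them, against 80.7 to 502 in the other 15. Without WT_star 33 the ratio of the acute phase list was 1.33 and without all 3 libraries 1.28. In WT_star 33 the neutrophil and monocyte, B cell, T cell and macrophage marker lists were also at their highest of the 10 mixed libraries, and the nuclear oxidative phosphorylation list was at its lowest. The part of those cells in the acute phase result was not tested. These acute phase and macrophage genes were named after their values were seen.

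Major urinary proteins are secreted carriers of pheromones, made by the liver from a cluster of near-identical genes on chromosome 4, so reads may be divided among copies. Of 22 tested, 20 had a higher SD in mixed ancestry, with a median ratio of 2.52, and 10 were wider at an unadjusted p under 0.05, against 61%, 1.14 and 9.74% over all genes. The mean log2 level of the list was 4.54 in KO_star 16, against 9.87 in KO_star 14, and 7.45 to 8.89 in the pure libraries. Mup3 was at 5474 in KO_star 16, against 22604 to 61377 in the other 16 libraries. Without KO_star 16 the ratio of the list was 1.67. The same library was highest in the cell division list, at a mean log2 level of 8.05, against 5.5 to 6.55 in the other mixed and 5.23 to 6.93 in the pure libraries. Without it the ratio of that list was 0.783, against 1.28 with it. In KO_star 16 the 2 tested pancreatic acinar markers of 10 in the table, at a mean log2 level of 9.95, and the 2 tested skeletal muscle markers of 8, at 7.76, were also at their highest of the 17 libraries, and their part in these results was not tested.

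**Figure D3:**
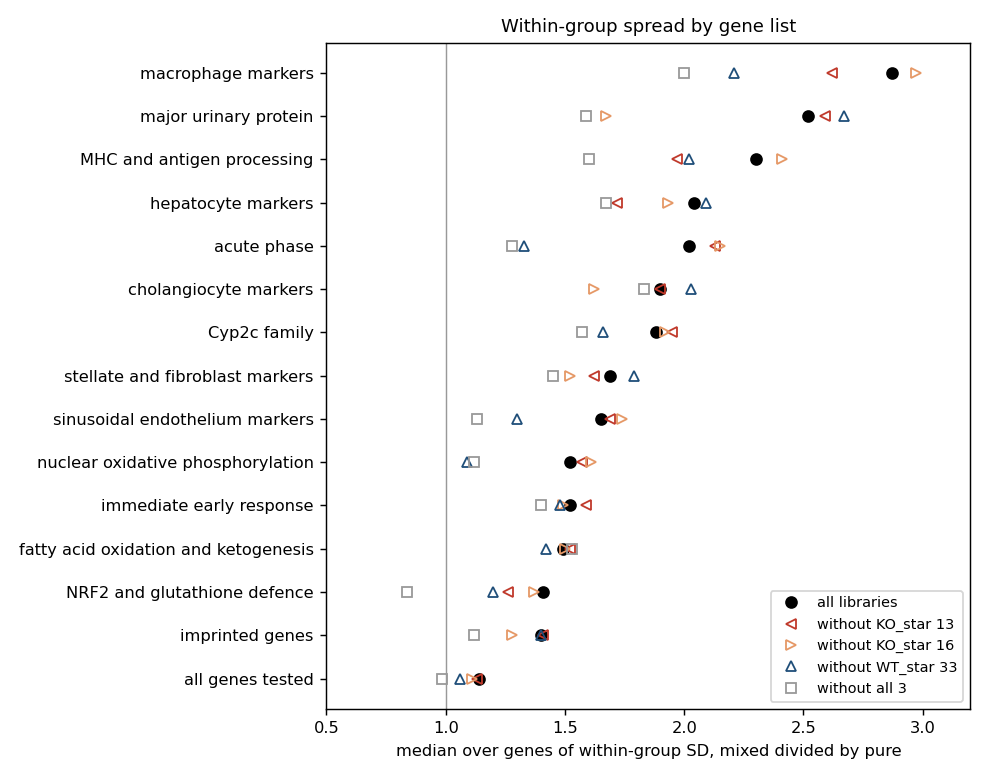
Median over the genes of a list of the within-group SD in mixed divided by that in pure ancestry, for the 14 lists of at least 5 tested genes with the highest ratio and for all genes tested, with all libraries (filled circles) and after leaving out KO_star 13, KO_star 16, WT_star 33 or all 3. Macrophage markers range over 2.0 to 2.97, acute phase genes fall to 1.33 without WT_star 33, and major urinary proteins fall to 1.67 without KO_star 16.

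Urea cycle and amino acid breakdown genes, with 10 of 27 higher in SD, had a median ratio of 0.969, and methionine and folate cycle genes, with 12 of 25, had 0.993. Over all genes, 61% were higher in SD and the median ratio was 1.14. Growth hormone and insulin signalling genes had 0.981, pericentral Wnt targets 0.936 and interferon response genes 0.976. These lists, 2 of which held the most level calls, thus had a median spread close to that of the pure groups.

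Genes that segregate were sought among the 10 mixed libraries alone. A gene was counted as split when, with its mixed libraries put in order, the widest gap was at least 1 on the log2 scale and wider than the range on either side of it, with at least 2 libraries and both genotypes on each side. This found 69 genes, or 0.427% of those tested, on 17 chromosomes. The same rule found 40 among the 7 pure libraries. Since it asks for both genotypes on each side, a gene that separates the KO from the WT libraries cannot count there. The mixed count did not fall with fewer libraries: it was 69 to 90 without any single one and 104 without the 3 that stood apart. The mixed and pure counts can thus not be set against each other. A gap of at least 2 was reached by 31 genes in the mixed and by 2 in the pure libraries. Gm14094 and Gm18119, with gaps of 5.32 and 4.48 in the mixed libraries, had at most 0.821 in any pure library. They passed the filter through mixed libraries alone and could not split in the pure ones. Such genes remain in the mixed counts, so the mixed and pure counts are not alike. The narrowest gap counted was 1.01, for Arfgap3, and the widest not counted was 0.98, for Synm. Of the 69, 42 were predicted genes, clone names, pseudogenes or genes without a symbol, and 20 had a mean of at least 100 in the mixed libraries.

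**Figure D4:**
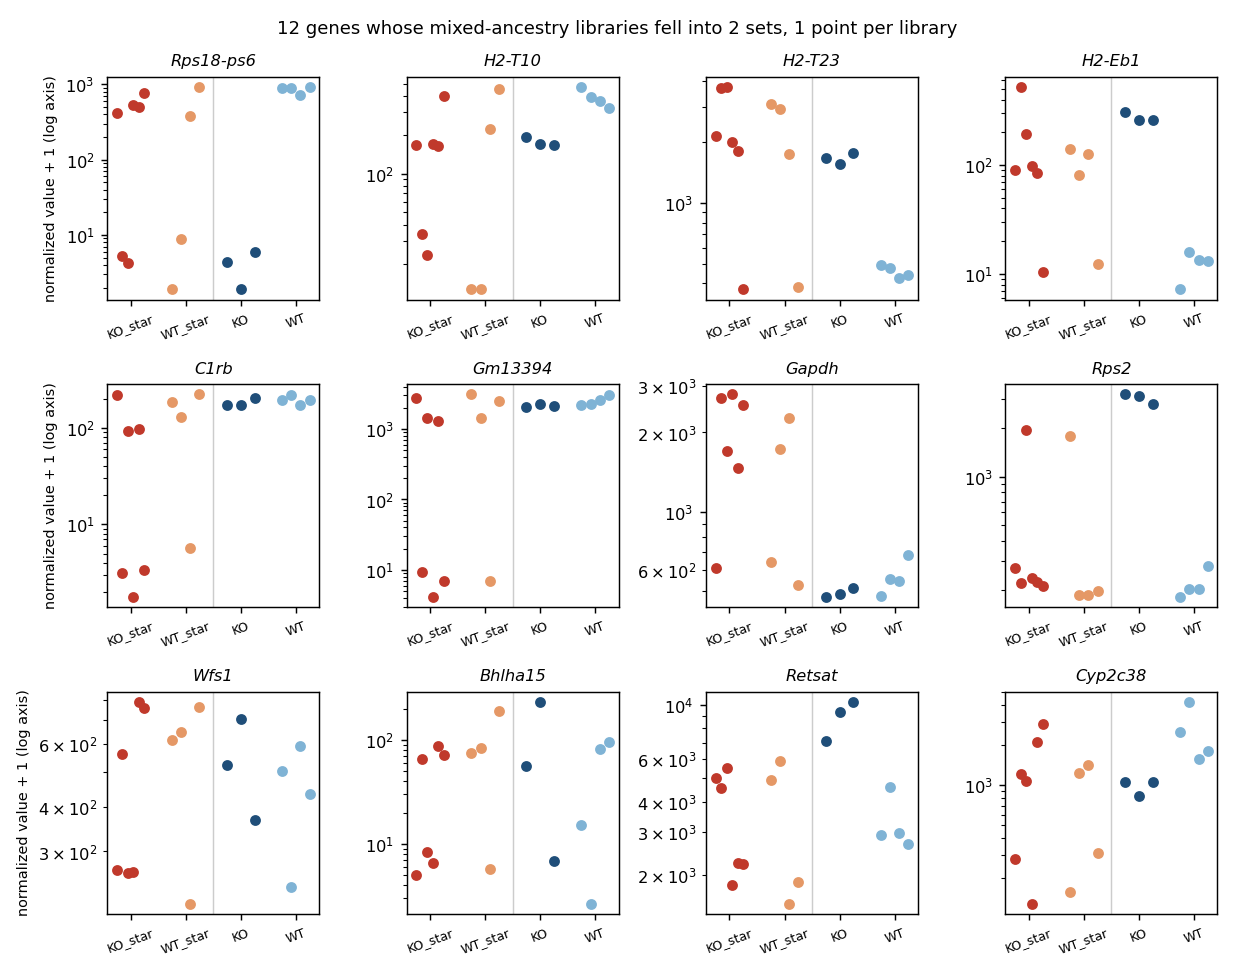
Normalized value plus 1 of each library (points, log axis) by group for 12 genes whose 10 mixed libraries fell into separate sets, mixed groups left of the line and pure groups right of it. In Rps2 the lower set lies at the level of WT and the upper set nearer to KO, in C1rb and Gm13394 the lower set lies below all pure libraries, and in Gapdh the upper set lies above all of them.

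Split genes were compared with the pure lines, which the rule did not use. KO and WT libraries differed at an adjusted p under 0.05 in 754 of all genes tested (4.67%), 319 higher and 435 lower in KO, fitted on the 7 pure libraries alone. That count was 411 without KO 30, 353 without KO 31, 344 without KO 32 and 430 without WT 28. Of the 69 split genes 26, or 37.7%, were among them, and the median absolute difference between KO and WT was 0.92 over the split genes and 0.171 over all genes. In 21 split genes the pure lines lay on opposite sides of the gap, 11 with KO high and 10 with WT high. All pure libraries were on the high side in 16 and on the low side in 9, and in 23 a pure line had libraries on both sides.

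The largest set sharing a division of the libraries had 11 genes on 5 chromosomes, high in KO_star 12, 16, 17 and 29 and WT_star 33 and 34 and low in the other 4. It included Rps18-ps6, on chromosome 13 at 97760072 to 97760632, named as a pseudogene of the ribosomal protein S18 gene and annotated as protein coding. Rps18-ps6 had 414, 529, 497 and 766 in those KO_star libraries and 4.22 and 3.18 in the other KO_star libraries. Its WT_star values were 0.896, 7.73, 375 and 917, with 3.36, 0.888 and 4.92 in KO and 899, 883, 734 and 912 in WT, so that the low set lay near KO and the upper end of the high set reached WT. H2-T10, a nonclassical class I gene annotated as a polymorphic pseudogene, on chromosome 17 at 36115876 to 36121465, had the same division. It had 165, 167, 164 and 397 in the high and 32.7 and 22.2 in the low KO_star libraries, and 11.7, 11.6, 222 and 456 in WT_star. The KO libraries had 191, 168 and 165 and the WT libraries 467, 393, 368 and 324, all above the low set. H2-T-ps, BC023719, Gm10499, Gm8909 and H2-Ea, all on chromosome 17, shared this division. H2-T10, Rps18-ps6 and the pseudogenes are outside the naming rule and were chosen after their values were seen.

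Other genes of the same region of chromosome 17, lying among or beside those just named, divided the libraries otherwise. H2-T23, which encodes the peptide-presenting molecule Qa-1, had 372 in KO_star 29 and 385 in WT_star 34, against 1748 to 3742 in the other 8 mixed libraries. The pure libraries had 1662, 1558 and 1766 in KO and 491, 478, 422 and 439.8 in WT, a log2 difference of KO minus WT of 1.86. H2-T22, a neighbouring class I gene, and H2-Eb1, a class II beta chain, were also lowest in KO_star 29 and WT_star 34. H2-Eb1 had 9.46 and 11.3 there, against 80.2 to 518 in the other mixed libraries, 304, 260.1 and 259.8 in KO and 6.22, 14.8, 12.6 and 12.2 in WT. H2-D1, a classical class I gene, was not split but had 5322, 8754 and 10609 as lowest, median and highest in KO_star and 6572, 6297, 11359.7 and 14209.8 in WT_star, against 7049.7, 6976 and 6964 in KO and 11134, 12645, 10792 and 11309.5 in WT. Reads of these H2 genes may be divided among near-identical copies and between alleles that differ in sequence, which limits a comparison of their levels.

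C1rb and C1s2 departed from both pure lines. They encode relatives of the complement proteases C1r and C1s and lie close together on chromosome 6. C1rb had 2.11, 0.792 and 2.37 in KO_star 13, 16 and 29 and 4.71 in WT_star 33. It had 92.1 to 215 in the other KO_star and 129.5 to 219.7 in the other WT_star libraries, against 169, 172 and 199.8 in KO and 194, 217, 171 and 192 in WT. C1s2 was at 0.792 to 4.73 in the same 4 libraries and at 59.7 to 204 in the other 6, with 136, 173 and 199.8 in KO and 200.1, 219, 223 and 174 in WT. The pseudogene Gm13394, on chromosome 2, had the same division, with 3.17 to 8.45 in the 4 libraries and 1294 to 3094 in the other mixed libraries, against 2057, 2252 and 2130.4 in KO and 2209, 2297, 2552 and 3001 in WT. For all 3 genes a level near 0 occurred in 4 mixed libraries and in no pure library. Within the high set, KO_star 14, KO_star 17 and WT_star 21 lay below KO_star 12, WT_star 20 and WT_star 34 for each of the 3.

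Gapdh, the glycolytic enzyme often used as a reference gene, went the other way. It was at 612 in KO_star 12 and 1470.3 to 2789 in the other 5 KO_star libraries, and at 640.5, 1733, 2275 and 523 in the WT_star libraries. The pure libraries had 474, 485 and 514 in KO and 478, 554, 546 and 681 in WT. In 7 of 10 mixed libraries Gapdh thus stood at more than any pure library, and in KO_star 12, WT_star 20 and WT_star 34 within the pure range. Its mean difference in level was 1.39 ± 0.35 (SE, adjusted p = 0.075), short of the threshold. Reads of Gapdh may be divided with its many pseudogenes. Gm18119, a pseudogene on chromosome 10, had no read in any pure library, in KO_star 12 and 16 or in WT_star 34, and 21.3 to 50.2 in the other 7 mixed libraries.

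Rps2, a ribosomal protein gene of the small subunit on chromosome 17, was high in a single library of each mixed group. It had 1938 in KO_star 14 and 1776 in WT_star 20, against 184 to 274 in the other 8 mixed libraries, 3209, 3137 and 2789 in KO and 180.5, 202, 202 and 278 in WT. The log2 difference of KO minus WT was 3.83, and 8 mixed libraries were at the level of the WT line. Retsat, a retinol saturase gene on chromosome 6, had 1813, 3397 and 5480.2 as its lowest, median and highest values in KO_star and 4922, 5852, 1516 and 1869 in WT_star, against 7111, 9332 and 10309 in KO and 2924, 4609, 2963 and 2682 in WT. Its mixed libraries fell into sets of 5 and 5, with KO_star 12, 13 and 14 and WT_star 20 and 21 high, and all 10 were below the KO libraries. Cyp2c38, a cytochrome P450 gene on chromosome 19, had 127 and 278 in KO_star 16 and 12 and 155 and 309 in WT_star 20 and 34, below all pure libraries. The other 6 mixed libraries had 1077 to 2871, against 1057, 822 and 1055 in KO and 2512, 4226, 1579.7 and 1786 in WT.

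A set of 5 genes, most of the secretory pathway, shared a division on 3 chromosomes, and none of them was called between the pure lines. Bhlha15, the transcription factor Mist1 of secretory cells, Wfs1 and Dnajb9, of the endoplasmic reticulum, Arfgap3, of vesicle transport, and the phosphate transporter gene Slc34a2 were high in KO_star 13, 17 and 29 and WT_star 20, 21 and 34. Wfs1 had 561, 788 and 754 in the high and 260.5 to 266 in the low KO_star libraries, and 615, 648, 213 and 760.1 in WT_star. The pure libraries lay on both sides of the gap, with 525, 706 and 366 in KO and 502, 237, 592 and 435 in WT. Bhlha15 was at 4.05, 35.9 and 86.2 as lowest, median and highest in KO_star and 73.5, 83.1, 4.71 and 187 in WT_star, against 54.9, 232 and 5.9 in KO and 14.2, 1.64, 79.9 and 95.2 in WT. KO 32 and WT 26 were the lowest of their groups in both genes. Bhlha15 has a mean under 100 and was chosen after its values were seen.

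The 69 genes divided the mixed libraries in 42 ways, 33 of them seen in 1 gene. A neighbour within 2 Mb with the same division was found for 13 of the 69. Each mixed library was on the high side of 30 to 54 of the split genes, lowest in KO_star 14 and highest in KO_star 17. Without the library labelled KO_star 13 the rule found 89 genes, without KO_star 16 it found 90, without WT_star 33 69 and without all 3 it found 104.

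Mixed libraries were then placed between the pure lines over the 754 genes called there, with 0 at the mean of WT and 1 at the mean of KO. These genes were chosen for a wide difference in the pure libraries, so the positions are given as a description. The median position was 0.305, 0.435, 0.56, 0.147, 0.465 and 0.413 in KO_star 12, 13, 14, 16, 17 and 29, and 0.559, 0.589, 0.282 and 0.321 in WT_star 20, 21, 33 and 34. KO_star averaged 0.387 ± 0.144 and WT_star 0.438 ± 0.158 (SD), a difference of -0.0504 with a p of 0.61 (two-sided exact permutation test). Without the library labelled KO_star 13 the difference was -0.0599 (exact permutation p = 0.587). The ranges of the 2 mixed groups overlapped.

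Within the mixed groups, the SD had a median of 0.397 over the 754 genes and 0.234 over the other genes. An SD over 1 was found in 13.7% of the 754 genes and in 2.47% of the others, and an SD over 0.5 in 38.1% and 18.1%. This choice of genes used the pure libraries only.

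By chromosome, the positions differed among libraries of a group. On chromosome 17, with 81 genes, KO_star 14 was at 0.803 and KO_star 29 at 0.138, and WT_star 20 was at 0.704 and WT_star 34 at 0.217. On chromosome 19, with 42 genes, all 10 mixed libraries were between 0.415 and 0.975, and its lowest library stood above the lowest of every other chromosome. On chromosome 8, with 70 genes, they were between 0.0601 and 0.601. KO_star 16 was at the WT end or beyond it on several chromosomes, with -0.312 on chromosome 6, -0.481 on chromosome 7 and -0.372 on the X chromosome, with 11 genes, while it was at 0.631 on chromosome 13. KO_star 12 was at 0.0254 on chromosome 4 and 0.574 on chromosome 13.

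**Figure D5:**
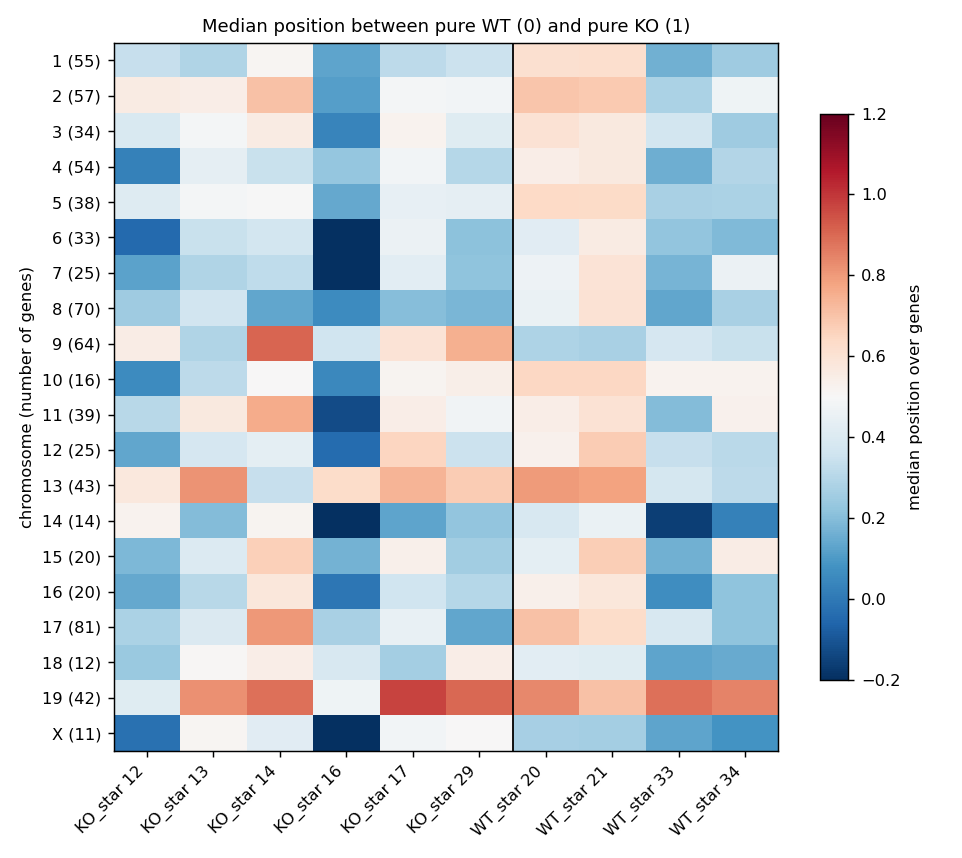
Median position of each mixed library between the pure WT mean (0) and the pure KO mean (1) on log2(value + 1), by chromosome with the number of genes in brackets, KO_star left and WT_star right of the line, the darkest blue also standing for values below the end of the colour scale. Libraries of 1 group differ on most chromosomes, chromosome 19 spans 0.415 to 0.975, and on chromosome 9, which carries Khdc3, KO_star spans 0.289 to 0.908 and WT_star 0.271 to 0.38.

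Chromosome 9 was the place where genotype was selected. Over its 64 genes the median position was 0.554, 0.289, 0.908, 0.359, 0.593 and 0.75 in KO_star 12, 13, 14, 16, 17 and 29, and 0.285, 0.271, 0.38 and 0.343 in WT_star 20, 21, 33 and 34. Over the 28 genes within 20 Mb of Khdc3 the medians were 0.543, 0.131, 0.891, 0.286, 0.611 and 0.793 in the KO_star libraries in the same order, and 0.345, 0.331, 0.19 and 0.231 in the WT_star libraries. Within this window the library labelled KO_star 13 was the lowest of the 10. Over the 17 genes within 10 Mb the lowest was WT_star 33 at 0.02, with KO_star 13 at 0.13, and over the 9 genes within 5 Mb it was KO_star 16 at 0.04, with KO_star 13 at 0.29. Of the 28 genes, 6 were nearer the KO mean and 22 nearer the WT mean in KO_star 13. On the KO side were Rab27a, a small GTPase gene of vesicle transport 0.00421 Mb from Khdc3, at a position of 1.12, Elovl5, a fatty acid elongase gene, at 0.85, Bnip2 at 0.65, Gm8116 at 1.57, Gsta2 at 2.24 and Me1 at 0.54. Rab27a was at -0.37 in KO_star 16. On the other chromosomes the median position of KO_star 13 was 0.442, against 0.458 in KO_star 17 and 0.376 in KO_star 29. Zfp949, a zinc finger gene 15.4 Mb from Khdc3, had 477 in KO_star 13 and 128 to 306 in the other KO_star libraries, with 425, 451, 605 and 402 in WT_star, 141, 171 and 181 in KO and 479, 479, 402 and 344 in WT. Gsta4, a glutathione transferase gene 5.08 Mb from Khdc3, had 848 in KO_star 13 and 440.5 to 498 in the other 5, with 766, 562, 575 and 749.8 in WT_star. Bnip2, Gtf2a2 and Fam81a, which lie within 5 Mb of Khdc3, did not separate the mixed groups: their positions in WT_star 20 were 1, 1.15 and 0.51, and in KO_star 16 they were 0.11, -0.29 and 0.15. These chromosome 9 genes were chosen after their values were seen.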

How the data were processed

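Liver RNA of 17 mice was measured by ribosome-depleted, stranded total RNA sequencing, per the labels' protocols. The deposited values are a normalized signal per gene, which the authors' table calls normalized counts, and from the values each library was divided by 1 factor. Per the submitters' processing notes, cutadapt, HISAT2, DESeq2 and GRCm38 were used; no source used here names the counting tool or its strand setting. All values came out as whole reads (100.0% within 0.001) once divided by what 1 read is worth in their library, and 26963 of 27020 gene IDs matched GENCODE names.

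Genes that reached 10 in 3 or more libraries were tested on log2(value + 1) as 4 group means by limma 3.58.1 (R 4.3.3) with trended, robust variance moderation. Spread was tested by limma on absolute deviations from the group mean, scaled for group size, and by an F test of pooled variances. Exact permutation tests used scipy 1.17.1. Those of the deviation per library are approximate, since libraries of a group share its mean. On the recovered reads, edgeR 4.0.16 called 193 genes in level and DESeq2 1.42.0 called 599. P-values were adjusted by Benjamini-Hochberg over all genes tested. The tests were checked on simulated data with normally distributed errors on the log2 scale.

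The text names, in level, the 12 higher and 12 lower genes with the largest difference among called genes with a mean of at least 100. In spread it names the 8 wider and 8 narrower with the smallest p, among split genes the 15 with the widest gap and those with a neighbour of the same division, and per list up to 3 called members, predicted genes and pseudogenes left out. The groups compared, the rules and the 48 gene lists were chosen with earlier results of these data known. Over 30 pairs of libraries of a group, the chi-square of counts per degree of freedom was at least 8.53. Pairs across groups were not compared.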

Additional observations from a re-analysis of the deposited data

Results flagged for a closer look

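Of 164 groups of libraries screened, over the named genes and the deviation and position per library, 18 held a library far from the others of its group. For genes picked without regard to these values the screen would flag about 1 in 20 groups by chance. Many genes screened were picked in these data for their spread or a gap between libraries, so that rate cannot be set against the 18. In WT_star 33 these were Neb at 2546.5, Tmem176a at 8209, Spidr at 153, Wfs1 at 213 and C1rb at 4.71. In WT_star 20 they were Clec2h at 12.5, Rps2 at 1775.5 and Mup2 at 881.5. KO_star 29 was far below its group for H2-T23 at 372.5 and H2-T22 at 112, KO_star 14 far above for Rps2 at 1937.5, and KO_star 16 apart for Ugt3a1 at 206 and Anxa4 at 1190.3. Among the WT libraries, Lrtm1 was at 1622 in WT 25, Slc6a9 at 1306 in WT 26, Fam20b at 388 and Mup2 at 970.2 in WT 27, and Hp at 24705 in WT 28.

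The difference between mixed and pure ancestry itself differed between the genotypes for Cyp17a1 (interaction adjusted p = 0.0014), Them7 (0.000142), Igf2bp3 (0.0151) and Meiob (0.000829), by limma. Cyp17a1 and Them7 differed strongly in WT_star minus WT, and Igf2bp3 and Meiob in KO_star minus KO.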

How the results depend on the processing

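No paired analysis was possible because no replicate number occurs in more than 1 group. Leaving out the 3 libraries that stood apart together was chosen after seeing the data. Of 45 named level genes, 10 kept their call in every setting that gave a value, among them Itga6, Mmd2, Slc15a2, Ephb6 and Adgrv1. Over 1299 values of these genes none reversed and 331 were no longer past the threshold. The count of 184 genes in level was 121 without a filter on low values, 599 with DESeq2, 58 with no term for genotype, 91 with genotype and ancestry as additive terms, 718 with library weights and 119 without the 3 libraries, and between 75 and 322 when any single library was left out. It was 162 with equal library totals and 193 with edgeR.

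The count of 0 genes in spread was 2 with a pseudocount of 5, 1275 without a filter (811 wider, 464 narrower), 1 with a filter at 50 in 3 or more libraries, 1 with quantile normalization, 9 with equal library totals, 4 with the F test, 2 with the F test without Gm18119 (chosen after seeing the data) and 113 without the 3 libraries. Leaving out single libraries gave 0 to 173 genes, the highest without WT_star 34, next to 129 without WT_star 21 and 73 without WT_star 20. The difference in deviation per library, 0.034, was 0.0153 as a median over genes (exact permutation p = 0.251), 0.0315 with a filter at 50 in 3 or more libraries (exact permutation p = 0.0571), 0.00874 without the 3 libraries, and 0.0207 to 0.046 without single libraries. The 69 split genes were 188 with a gap of at least 0.5, 31 with a gap of at least 2, 35 with a filter at 50 in 3 or more libraries and 104 without the 3 libraries, and 69 to 90 without single libraries. The 754 genes between the pure lines were 344 to 910 without single pure libraries. The difference in position, -0.0504, lay between -0.102 and -9.55e-05 without single libraries. The cause of these changes was not tested. The small groups, of 3 to 6 libraries, limit what a test of spread can show.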
